A study of Mus musculus with 12 samples.

Results

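A group of 10 interferon-inducible mouse genes was followed across a differentiation course of bone cells with and without an intact Piezo1 gene. They encode 5 guanylate-binding proteins (Gbp2, Gbp3, Gbp6, Gbp7 and Gbp9), 3 immunity-related GTPases (Igtp, Irgm1 and Irgm2) and 2 Schlafen proteins (Slfn2 and Slfn8). The genes were taken by name from the deposited table of read counts, where they make up 10 of 32248 rows, and all 10 passed the filter that left 13772 genes for testing. They were chosen by family and with their differences between lines and days in these libraries in view. Their levels and fold changes are therefore given as a description with errors and without p-values, and tests are given for genes outside the list.

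The groups are OCY454 cells with exons 19 to 21 of Piezo1 removed by CRISPR-Cas9 (KO) and unedited OCY454 cells (WT). Each line was sampled at days 1, 14 and 28, with 2 poly(A) RNA libraries per line and day. The day 1 libraries are also labelled basal. OCY454 is an osteocyte-like line that carries a temperature-sensitive large T antigen in all 6 groups. It is expanded at 33 °C and differentiates once moved to 37 °C. Piezo1 is a mechanically gated cation channel, and the series asks what its loss does during osteocyte differentiation. The labels do not say whether the 2 libraries of a group came from separate cultures, or how many edited clones make up the KO line, so a p-value reflects the spread between these libraries alone, which may be technical.

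Guanylate-binding proteins and immunity-related GTPases are large GTPases that cells make after exposure to interferons. The effector members settle on the vacuoles of intracellular bacteria and parasites, help to break them open and hand their contents to caspase-11 and other sensors, while Irgm1, Irgm2 and Igtp stay on the cell's own membranes and keep the effectors off them. Schlafens are a rodent-expanded family with roles in cell quiescence, RNA cleavage and restriction of viruses. Interferons act through paired receptors and Janus kinases. Type I interferon drives a complex that holds Stat2 and Irf9 onto interferon-stimulated response elements, and interferon gamma acts through gamma-activated sites and induces Irf1. The genes are best known from macrophages and other infected cells, and no interferon is named among the treatments here.

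Both kinds of site were looked for in the promoters. RefSeq promoter windows on GRCm38.p6, from 250 bases before to 50 after an annotated start, were available for 8 of the 10 genes, and those of Gbp6 and Gbp9 are not shown. The letters searched were GAAA, any 2 bases and again GAAA for the core of an interferon-stimulated response element, on both strands, and TTCNNNGAA for the core of a gamma-activated site, which reads the same on both strands. The sequences below run 5′ to 3′ along the gene, and capitals mark matches of either core. They are shown because they hold the types of match found among the members: both cores (Gbp7, Igtp and Irgm2), the response element core alone (Irgm1 and Slfn8) and neither (Slfn2).
Gbp7 (chr3:142530086-142530385, plus strand): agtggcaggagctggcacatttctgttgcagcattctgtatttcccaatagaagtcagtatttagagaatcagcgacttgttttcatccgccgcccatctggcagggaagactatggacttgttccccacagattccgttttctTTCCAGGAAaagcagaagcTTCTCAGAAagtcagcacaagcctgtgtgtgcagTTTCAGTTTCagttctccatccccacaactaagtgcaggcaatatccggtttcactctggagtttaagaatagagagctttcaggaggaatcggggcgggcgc
Irgm1 (chr11:48871371-48871670, minus strand): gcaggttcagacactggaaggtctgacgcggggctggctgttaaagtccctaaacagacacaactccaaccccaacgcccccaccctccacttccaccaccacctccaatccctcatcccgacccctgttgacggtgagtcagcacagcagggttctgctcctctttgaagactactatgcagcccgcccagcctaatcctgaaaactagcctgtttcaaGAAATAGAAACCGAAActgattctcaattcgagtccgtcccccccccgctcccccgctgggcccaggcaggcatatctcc
Igtp (chr11:58199306-58199605, plus strand): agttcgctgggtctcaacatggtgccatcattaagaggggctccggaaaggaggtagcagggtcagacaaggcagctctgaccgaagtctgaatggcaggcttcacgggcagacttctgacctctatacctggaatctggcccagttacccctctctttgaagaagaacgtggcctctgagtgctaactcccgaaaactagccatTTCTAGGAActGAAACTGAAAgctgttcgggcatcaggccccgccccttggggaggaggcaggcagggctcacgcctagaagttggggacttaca
Irgm2 (chr11:58214727-58215026, plus strand): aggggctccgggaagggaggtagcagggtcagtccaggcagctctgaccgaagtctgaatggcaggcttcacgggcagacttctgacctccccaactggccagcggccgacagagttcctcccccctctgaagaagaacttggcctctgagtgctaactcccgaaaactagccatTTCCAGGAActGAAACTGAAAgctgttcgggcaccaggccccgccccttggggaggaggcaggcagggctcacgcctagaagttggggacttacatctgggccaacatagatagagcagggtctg
Slfn8 (chr11:83020761-83021060, minus strand): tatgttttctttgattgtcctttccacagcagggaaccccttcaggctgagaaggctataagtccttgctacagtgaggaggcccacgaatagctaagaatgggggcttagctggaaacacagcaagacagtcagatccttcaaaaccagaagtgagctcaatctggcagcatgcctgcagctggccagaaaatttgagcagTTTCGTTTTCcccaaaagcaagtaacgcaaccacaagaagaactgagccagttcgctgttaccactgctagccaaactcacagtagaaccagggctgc
Slfn2 (chr11:83064862-83065161, plus strand): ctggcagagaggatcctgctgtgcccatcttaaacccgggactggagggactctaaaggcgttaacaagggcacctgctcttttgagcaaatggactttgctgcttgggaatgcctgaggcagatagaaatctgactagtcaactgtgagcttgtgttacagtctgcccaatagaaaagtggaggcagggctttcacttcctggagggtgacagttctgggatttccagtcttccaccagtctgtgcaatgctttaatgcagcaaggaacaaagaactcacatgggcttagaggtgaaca

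Of the 8 members with a window, 7 held the response element core, which 3.44% of all 32851 windows in the table held. The gamma-activated core stood in 3 of the 8, Gbp7, Igtp and Irgm2, against 8.3% of all windows, and those 3 held both cores, as 0.454% of all windows did. No response element match overlapped a gamma-activated match. In Irgm1 and in Gbp3 a pair of response element matches shared bases with each other. Igtp and Irgm2 lie side by side on chromosome 11, and their windows share a run of 61 identical bases. In both windows the gamma-activated core stands just before the response element core, with 2 bases between them. Slfn8 had a second annotated start whose window held the same single match at -136 to -127 from the start. Of 17 other genes of these families with a window, 8 held the response element core, 4 the gamma-activated core, 4 both and 9 neither. A match of letters is a description and shows neither binding nor use.

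**Figure D1:**
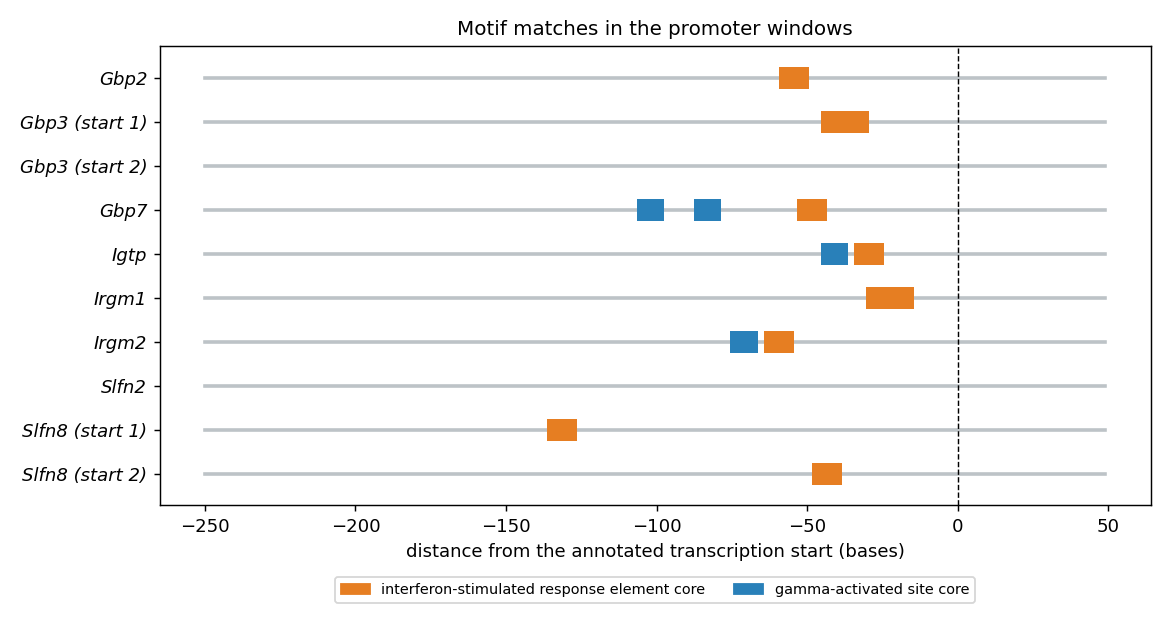
Motif matches in the RefSeq promoter windows of 8 genes. The x axis is the distance in bases from the annotated start (dashed line), orange boxes mark matches of the response element core and blue boxes matches of the gamma-activated core. Matches lie before the start in every window that has one, and Slfn2 and the other annotated start of Gbp3 have none.

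Libraries held 8590067 to 15357427 counts assigned to genes. Levels are given in CPM, counts per 1000000 counts of the library after TMM scaling of the totals, whose factors lay between 0.9417 and 1.051. Piezo1 had 169.8 and 169.4 CPM in KO and 216.1 and 214.5 CPM in WT at day 1, 114.3 and 107.6 CPM in KO and 210.7 and 206.1 CPM in WT at day 14, and 281.5 and 275.6 CPM in KO and 235.1 and 241.8 CPM in WT at day 28. A gene-level count can include reads from the exons that were not removed, so these values do not check the labels. Piezo1 also shares 2441 exon bases, 24.6% of its exon length, with Ctu2 on the opposite strand. The strand setting of the counting is not stated, so Ctu2 reads may be among the Piezo1 counts. Every pair of replicates differed by more than sampling noise. Over all genes with at least 10 counts in the pair, chi-square per degree of freedom was highest in WT at day 28 (9.7). KO at day 28 came next (5.33). The 2 KO libraries of day 28 stood apart for the genes described here, and for some other interferon-stimulated genes as given below. Replicate 2 was above replicate 1 for 9 of the 10. The summed level of the 10 was 102.1 CPM in replicate 2 and 67.4 CPM in replicate 1. Day 28 values with either library left out are given with the counts over the 10 genes and beside the calls they change. The 12 osteoblast and osteocyte markers summed to 2900 to 22200 CPM per library, with the late osteocyte hormone gene Fgf23 at 0 in KO at day 1, KO at day 28 and WT at day 28. The 11 leukocyte markers summed to 12.9 to 16.8 CPM in the KO libraries and 12.8 to 24.65 CPM in the WT libraries, with the T cell marker Cd3e at 0 throughout. The 6 endothelial markers summed to 1.32 to 2.45 CPM in the KO libraries and 2.08 to 5.94 CPM in the WT libraries. At day 28 most of the WT sum was Kdr, at 4.47 and 4.21 CPM in WT against 0.519 and 0.407 CPM in KO. Pecam1 overlapped between the lines at that day, with 0.349 and 0.495 CPM in WT and 0.519 and 0.272 CPM in KO. Cdh5 had 0.279 and 0.330 CPM in WT and 0.346 and 0.407 CPM in KO. The part of these markers in the results was not tested. In bulk RNA, fewer cells that express a gene and less of its RNA per cell cannot be told apart.

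For the guanylate-binding genes of the chromosome 3 cluster, Gbp2, Gbp3 and Gbp7, both KO libraries lay below both WT libraries at all 3 days, and all 3 genes rose from day 1 to day 28 in both lines. Gbp2 (ENSMUSG00000028270.12, GRCm38/mm10 chromosome 3, 142620602 to 142638008, plus strand, 11 exons) encodes a GTPase that coats bacterial and parasite vacuoles. Its level was 1.45 and 1.47 CPM in KO against 2.54 and 2.56 CPM in WT at day 1, 4.81 and 6.09 CPM in KO against 8.09 and 8.68 CPM in WT at day 14, and 2.60 and 4.75 CPM in KO against 10.9 and 11.6 CPM in WT at day 28. The WT levels were highest at day 28 and the KO levels at day 14. KO over WT, the log2 fold change was -0.80 ± 0.32 (SE) at day 1, -0.61 ± 0.23 at day 14 and -1.57 ± 0.22 at day 28. The day 14 value was the smallest of the called KO over WT values of the 10 genes, and it fell short of the threshold when either WT library of day 14 or KO replicate 1 of day 14 was left out, or with DESeq2. In KO, Gbp2 alone among the rising members was lower on average at day 28 than at day 14, by -0.54 ± 0.25, which was not called.

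Gbp3 (ENSMUSG00000028268.14, chromosome 3, 142560026 to 142573209, plus strand, 14 exons) had 1.97 and 2.35 CPM in KO against 3.90 and 3.15 CPM in WT at day 1. At day 14 it had 2.93 and 4.03 CPM in KO against 12.8 and 12.8 CPM in WT, and at day 28 it had 2.94 and 5.70 CPM in KO against 23.45 and 26.4 CPM in WT. WT was higher at each later day, while the 2 KO libraries of day 28 lay on either side of replicate 2 of day 14. As a log2 fold change of KO over WT this was -0.70 ± 0.30 at day 1, -1.87 ± 0.24 at day 14 and -2.48 ± 0.20 at day 28.

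Gbp7 (ENSMUSG00000040253.15, chromosome 3, 142530342 to 142550149, plus strand, 11 exons), whose product helps to deliver antimicrobial machinery to pathogen vacuoles, had 1.37 and 1.55 CPM in KO against 4.29 and 5.64 CPM in WT at day 1. It had 5.76 and 4.03 CPM in KO against 19.4 and 20.9 CPM in WT at day 14, and 3.72 and 6.99 CPM in KO against 27.8 and 23.8 CPM in WT at day 28. The gap between the lines was of like size at each day, with log2 fold changes of -1.76 ± 0.32, -2.05 ± 0.22 and -2.23 ± 0.20 at days 1, 14 and 28. Of its 50-base exon windows, 12.7% also occur in other genes, among them the overlapping locus Gm43802 and Gbp3. Gm43802 shares 637 exon bases with Gbp7 and has no row in the deposited counts. How reads shared with Gbp3 were assigned is not stated, so part of the Gbp7 count may depend on it. For Gbp2 and Gbp3 that share was 2.03% and 3.75%.

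Gbp6 and Gbp9, of the chromosome 5 cluster, were close to 0 at day 1 in both lines and rose strongly up to day 28 in both. Gbp6 (ENSMUSG00000104713.4, chromosome 5, 105270702 to 105293698, minus strand, 8 exons) had 0.171 and 0.441 CPM in KO and 0.260 and 0.131 CPM in WT at day 1, which are 2 and 6 counts in KO and 4 and 2 counts in WT. It had 1.13 and 4.46 CPM in KO against 7.67 and 6.25 CPM in WT at day 14, and 13.4 and 18.95 CPM in KO against 35.2 and 38.8 CPM in WT at day 28. The groups overlapped at day 1 and were apart at days 14 and 28. The log2 fold change was 0.66 ± 1.08 at day 1, -1.30 ± 0.34 at day 14 and -1.18 ± 0.20 at day 28. The KO libraries of day 14 differed from each other 3.94-fold for Gbp6, and without KO replicate 1 the day 14 fold change was -0.66 and no longer called. Without WT replicate 1 it was -1.12 and not called either. Of the 50-base exon windows of Gbp6, 70.7% also occur in other genes, among them Gm43302, Gbp10 and Gbp4, so the count of Gbp6 depends on how such reads were assigned. Gm43302 shares 1726 exon bases with Gbp6 and has no row in the deposited counts, while Gbp10 and Gbp4 have one.

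Gbp9 (ENSMUSG00000029298.15, chromosome 5, 105077630 to 105139539, minus strand, 12 exons) was not called between the lines at any day. It had 2 and 0 counts in KO and 3 and 6 counts in WT at day 1, a ratio of 3.72-fold lower in KO with a 95% interval of 0.77 to 35.4 that covers counting error only. At day 14 it had 2.17 and 3.43 CPM in KO against 1.77 and 1.62 CPM in WT, and at day 28 it had 9.34 and 17.45 CPM in KO against 19.3 and 17.25 CPM in WT. The KO libraries lay above the WT libraries at day 14 and overlapped them at day 28. KO over WT, its log2 fold change was 0.72 ± 0.42 at day 14 and -0.43 ± 0.22 at day 28. Without KO replicate 2 of day 28 the last value was -0.97 and was called. Relative to 2 counts at day 1, the 365 counts of the KO libraries at day 28 were 175.6-fold higher in scaled terms, with a 95% interval of 48.3 to 1456 from counting error.

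**Figure D2:**
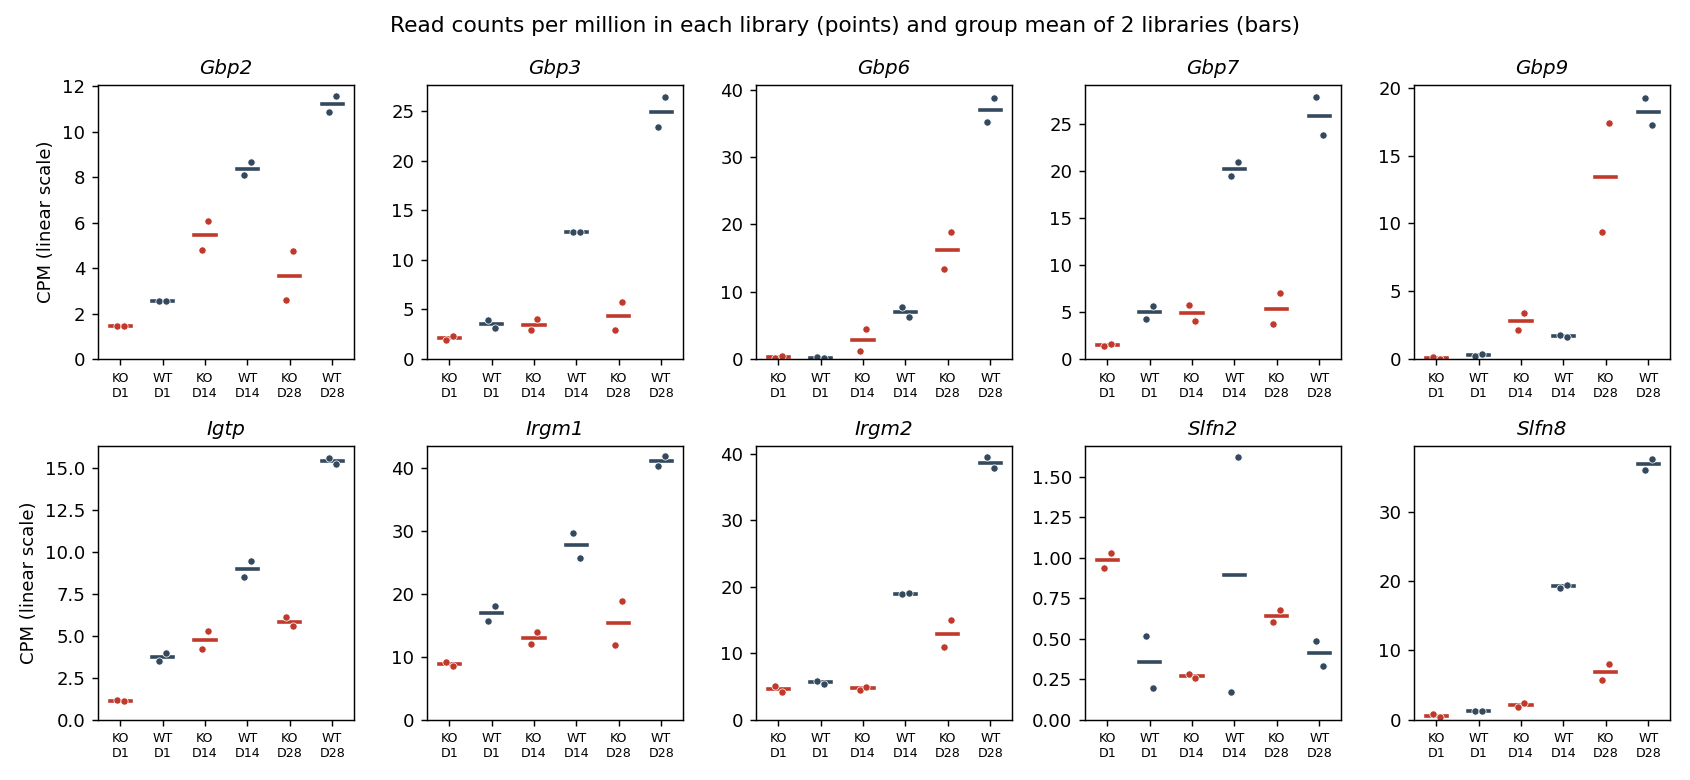
CPM of the 10 genes on a linear y axis, by line and day on the x axis. Points are libraries (red KO, blue WT) and bars the mean of 2 libraries. WT at day 28 is highest for every gene but Slfn2, and KO at day 14 lies above WT at day 14 for Gbp9.

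The 3 immunity-related GTPases are the regulatory members that shield host membranes, and all were lower in KO at days 14 and 28. Igtp (ENSMUSG00000078853.8, chromosome 11, 58199556 to 58207591, plus strand, 3 exons), also called Irgm3, had 1.2 and 1.10 CPM in KO against 3.51 and 4.0 CPM in WT at day 1. It had 4.25 and 5.32 CPM in KO against 8.52 and 9.49 CPM in WT at day 14, and 6.14 and 5.57 CPM in KO against 15.6 and 15.3 CPM in WT at day 28. No library of one line reached the other line at any day. The log2 fold change was -1.70 ± 0.27, -0.90 ± 0.19 and -1.40 ± 0.17 at days 1, 14 and 28, so the gap was narrowest at day 14.

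Irgm1 (ENSMUSG00000046879.7, chromosome 11, 48861968 to 48871683, minus strand, 4 exons), which is needed for control of mycobacteria and for mitochondrial and lysosomal upkeep in mice, was the highest member per kilobase of exon at day 1. It had 9.14 and 8.61 CPM in KO against 15.7 and 18.1 CPM in WT at day 1, 12.0 and 13.9 CPM in KO against 29.8 and 25.8 CPM in WT at day 14, and 11.9 and 18.95 CPM in KO against 40.3 and 41.9 CPM in WT at day 28. The groups were apart at each day, with log2 fold changes of -0.93 ± 0.17, -1.11 ± 0.16 and -1.39 ± 0.14. The KO libraries of day 28 overlapped both those of KO at day 14 and those of WT at day 1.

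Irgm2 (ENSMUSG00000069874.7, chromosome 11, 58199618 to 58222782, plus strand, 4 exons), which restrains caspase-11 responses in mice, had 5.04 and 4.19 CPM in KO against 5.79 and 5.45 CPM in WT at day 1. It had 4.53 and 4.89 CPM in KO against 18.9 and 19.0 CPM in WT at day 14, and 10.9 and 15 CPM in KO against 39.4 and 37.9 CPM in WT at day 28. The lines were close at day 1 and well apart later: from day 1 to day 14 the log2 change was 0.04 ± 0.21 in KO and 1.75 ± 0.16 in WT. The log2 fold change was -0.29 ± 0.19 at day 1, which was not called, -2.0 ± 0.17 at day 14 and -1.56 ± 0.13 at day 28. Igtp and Irgm2 share 162 exon bases on the same strand, 8.0% of the exon length of Igtp and 4.4% of that of Irgm2.

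The 2 Schlafens had unlike patterns. Slfn8 (ENSMUSG00000035208.16, chromosome 11, 83002158 to 83020810, minus strand, 6 exons), a long Schlafen with a helicase-like part, had 0.769 and 0.441 CPM in KO against 1.30 and 1.31 CPM in WT at day 1. It had 1.89 and 2.49 CPM in KO against 19.1 and 19.4 CPM in WT at day 14, and 5.80 and 8.01 CPM in KO against 36.0 and 37.6 CPM in WT at day 28. The lines did not overlap at any day, and the KO level of day 28 was below the WT level of day 14. Its log2 fold change was -1.12 ± 0.41 at day 1, -3.12 ± 0.20 at day 14, the widest gap of any of the 10 genes at any day, and -2.40 ± 0.15 at day 28. The day 1 call rested on 9 and 6 counts in KO against 20 and 20 counts in WT, and it was lost without either WT library or without KO replicate 2 of that day.

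Slfn8 neighbours Slfn9, a near relative with which it shares sequence: 14.6% of the 50-base exon windows of Slfn8 also occur in Slfn9 or Slfn10-ps. Slfn8 made up 0.308% and 0.176% of the counts of the pair in KO against 0.880% and 0.750% in WT at day 1. The share was 0.957% and 1.21% in KO against 8.23% and 8.58% in WT at day 14, and 3.07% and 4.71% in KO against 12.2% and 12.6% in WT at day 28. Slfn9 itself was higher in KO at day 1 (log2 fold change 0.64 ± 0.07, adjusted p = 7.12e-07 by edgeR's quasi-likelihood test) and lower in KO at day 28 (-0.59 ± 0.07, adjusted p = 2.09e-06), so at day 1 its direction was opposite to that of Slfn8.

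Slfn2 (ENSMUSG00000072620.3, chromosome 11, 83065112 to 83070678, plus strand, 2 exons), which keeps T cells and monocytes quiescent in mice, was at the edge of detection. It had 11 and 14 counts in KO against 8 and 3 counts in WT at day 1, 3 and 3 counts in KO against 2 and 14 counts in WT at day 14, and 7 and 10 counts in KO against 7 and 4 counts in WT at day 28. In CPM these were 0.940 and 1.03 in KO against 0.520 and 0.197 in WT at day 1, 0.283 and 0.257 in KO against 0.169 and 1.62 in WT at day 14, and 0.606 and 0.679 in KO against 0.488 and 0.330 in WT at day 28. The log2 fold change was 1.43 ± 0.67, -1.53 ± 0.84 and 0.63 ± 0.73, and none was called. The day 14 value turned on 1 library: it was -2.54 and called without WT replicate 1, and 0.65 without WT replicate 2. Without either WT library of day 14 the day 1 value, at 1.44, was called as well. In the same WT replicate 2 of day 14 the leukocyte markers summed to 24.65 CPM, the highest of the 12 libraries, and the part of such cells in the Slfn2 count was not tested.

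Over the 10 genes, edgeR's quasi-likelihood test with Benjamini-Hochberg adjustment over 13772 genes called 4 members lower in KO at day 1, where it called 20.8% of all genes lower and 19.5% higher. It called 8 members lower at day 14, where it called 25.9% of all genes lower and 23.8% higher. At day 28 it called 8 members lower, beside 21.2% of all genes lower and 19.8% higher. Since the genes were chosen with these values known, nothing is read from these counts. The median log2 fold change of the 10 genes was -0.86, -1.41 and -1.48 at days 1, 14 and 28, beside -0.0072, -0.022 and -0.0064 over all genes tested. With 1 library left out at a time, the day 28 log2 fold changes of the 8 members called at that day stayed negative. Only the fits without a day 28 library change the groups compared, so the other fits say little about these values. The extremes came without replicate 2 or replicate 1 of KO at day 28, with log2 fold changes from -2.10 to -1.23 for Gbp2, -3.08 to -2.12 for Gbp3, -1.46 to -0.96 for Gbp6, -2.79 to -1.88 for Gbp7, -1.78 to -1.11 for Irgm1, -1.82 to -1.36 for Irgm2, -2.66 to -2.20 for Slfn8 and -1.47 to -1.33 for Igtp. Both KO libraries lay below both WT libraries for 8 of the 10 at each day, beside 37.4%, 39.2% and 32.8% of all genes. With library totals in place of TMM, higher calls made up 38.3%, 42.5% and 32.9% of all calls at days 1, 14 and 28, against 48.4%, 47.9% and 48.4% with TMM, and 6, 8 and 8 of the members were called.

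**Figure D3:**
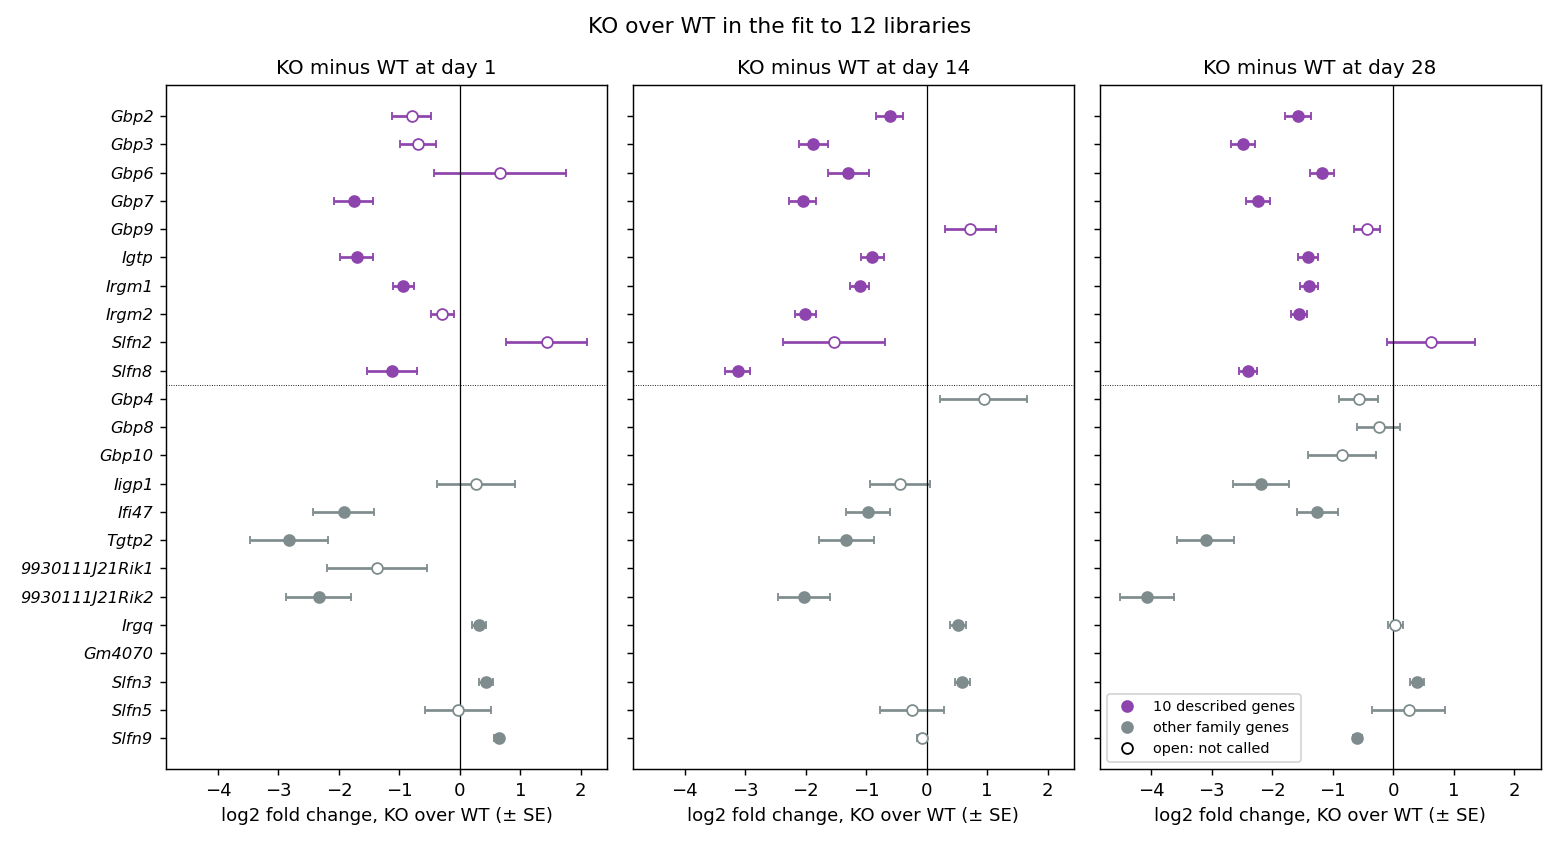
Log2 fold change of KO over WT at each day (x axis) with its SE for the 10 genes (purple) and 13 other tested genes of the same families (grey). Filled points were called and open points were not, and genes with 3 or fewer counts in a line at that day are not drawn. Gbp9 and Slfn2 are the members without a call at any day.

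Summed over the 10 genes, the level in KO was 21.7 ± 0.722 CPM (SD, n = 2) at day 1, 44.3 ± 6.45 CPM at day 14 and 84.7 ± 24.5 CPM at day 28. In WT it was 39.5 ± 2.06 CPM, 125.9 ± 0.326 CPM and 249.7 ± 1.73 CPM. The sum in KO at day 28 thus lay between those of WT at days 1 and 14. The rise with time was shared by the lines. From day 1 to day 14, 7 members were called higher in KO and 9 in WT, beside 19.4% and 18.2% of all genes. From day 14 to day 28, 4 were called higher in KO and 7 in WT, beside 25.6% and 17.9%. From day 1 to day 28, 9 were called higher in KO and 9 in WT, beside 28.2% and 24.6%. The exception was Slfn2 in both lines, at -0.60 ± 0.62 in KO and 0.20 ± 0.79 in WT. Without KO replicate 2 of day 28, 6 of the 10 were called higher from day 1 to day 28 in KO. From day 14 to day 28 in KO, 6 were called without KO replicate 1 of day 28, with Gbp3 (0.70) and Irgm1 (0.55) added as higher, and 5 without KO replicate 2, with Gbp2 (-1.07) added as lower.

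The largest rises from day 1 to day 28 were those of the 2 chromosome 5 genes and Slfn8. Gbp6 rose by 5.65 ± 0.44 in KO and by 7.49 ± 0.40 in WT on the log2 scale. Gbp9 rose by 5.91 ± 0.39 in WT, beside the counting ratio given above for KO. Slfn8 rose by 3.54 ± 0.30 in KO and by 4.81 ± 0.19 in WT. The smallest rises among called members were those of Irgm1, by 0.82 ± 0.18 in KO and by 1.28 ± 0.14 in WT. The steps differed in timing: in WT, Gbp9 gained 2.5 ± 0.64 up to day 14 and 3.42 ± 0.31 after it, while Gbp7 gained 2.02 ± 0.21 up to day 14 and 0.36 ± 0.17 after it, where the second step was not called. In KO, Irgm2 gained 1.47 ± 0.18 after day 14, when most of its rise took place.

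The change over time was also set against that of the other line, as a description since the genes were chosen with such differences in view. From day 1 to day 14 the KO change minus the WT change was -1.18 ± 0.39 for Gbp3, -1.71 ± 0.27 for Irgm2 and -2.0 ± 0.53 for Slfn8, and these 3 were called lower, beside 9.65% of all genes. From day 1 to day 28 it was -1.79 ± 0.38 for Gbp3 and -1.27 ± 0.24 for Irgm2, and these 2 were called lower, beside 9.46% of all genes. Igtp and Gbp7, which were already lower in KO at day 1, had differences of 0.80 ± 0.34 and -0.29 ± 0.42 up to day 14 and of 0.30 ± 0.33 and -0.47 ± 0.41 up to day 28, none of them called. With 1 library left out at a time, the day 14 difference stayed called in 5 of 12 fits for Gbp3, 12 for Irgm2 and 11 for Slfn8, and the day 28 difference in all 12 for both Gbp3 and Irgm2. Without KO replicate 2 of day 28, 5 members were called in the day 28 difference. Without KO replicate 1 of day 1, 1 member was called in the day 14 difference.

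Ranked by mean level, WT at day 28 was the highest group for 9 of the 10 genes. For Gbp2, Igtp and Slfn8 no neighbours in the order of the 6 groups overlapped. The share of all genes with either trait was not computed, so nothing is read from these counts. In Gbp2 some neighbours were nearly tied, with 4.81 CPM in KO replicate 1 of day 14 and 4.75 CPM in KO replicate 2 of day 28. Igtp and Slfn8 had the same order, WT day 28, WT day 14, KO day 28, KO day 14, WT day 1 and KO day 1 from high to low, and in Gbp2 KO at day 14 and KO at day 28 changed places. Gbp3 and Gbp7 had a different order with 2 overlaps, KO day 28 with WT day 1 and WT day 1 with KO day 14. For Gbp6 and Gbp9 the second highest group was KO at day 28, and for Gbp9 it overlapped WT at day 28. In Slfn2, 4 of the 5 neighbouring pairs overlapped.

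Levels of different genes were compared per kilobase of exon, as CPM divided by exon length (RPKM). Exon length includes sequence shared with other genes, most of all in Gbp6 (70.7% of its 50-base windows). The order between genes therefore also depends on how shared reads were assigned, which is not stated. At day 1 Irgm1 was highest, at 1.53 ± 0.0648 RPKM in KO and 2.91 ± 0.289 RPKM in WT (SD, n = 2). At day 28 Irgm2 had the highest mean in both lines, at 3.51 ± 0.787 RPKM in KO and 10.5 ± 0.295 RPKM in WT. In KO that place rested on replicate 2, where Irgm2 was at 4.07 and Igtp at 2.75 RPKM, since in replicate 1 Irgm2 was at 2.95 and Igtp at 3.04 RPKM. In KO it was followed by Igtp at 2.90 RPKM, Gbp6 at 2.72, Irgm1 at 2.66, Gbp9 at 2.59, Slfn8 at 1.69, Gbp2 at 1.46, Gbp3 at 1.32, Gbp7 at 0.954 and Slfn2 at 0.386 RPKM. In WT it was followed by Slfn8 at 9.0 ± 0.283 RPKM, Gbp3 and Igtp at 7.64 RPKM each, Irgm1 at 7.08, Gbp6 at 6.21, Gbp7 at 4.59, Gbp2 at 4.46, Gbp9 at 3.53 and Slfn2 at 0.246 RPKM. In KO, Slfn8 stood below both chromosome 5 genes, and in WT next to Irgm2. Slfn9 was far above all members per kilobase, at 28.9 ± 2.51 RPKM in KO and 43.6 ± 0.137 RPKM in WT at day 28.

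The spread between KO replicates at day 28 was wide for these genes, and not for them alone. Among antiviral interferon-stimulated genes, Ifi44 had 7.44 CPM in replicate 1 and 14.3 CPM in replicate 2. Rtp4 had 5.19 and 9.1 CPM, and Bst2 had 28.7 and 47.9 CPM. Xaf1 (21.0 and 20.2 CPM) and Trim30a (2.25 and 1.63 CPM) were lower in replicate 2. Of 9 members with a mean of at least 2 CPM there, 5 were higher in replicate 2 than in replicate 1 by 1.5-fold or more. These were Gbp2, Gbp3, Gbp7, Gbp9 and Irgm1, with ratios of replicate 2 to replicate 1 of 1.83, 1.94, 1.88, 1.87 and 1.59. Among all 11378 genes at that level 142 were, or 1.25%. Genes lower in replicate 2 by that much were not counted. Igtp went the other way, with a ratio of 0.907. In KO at day 14, 2 of 9 members were that much higher in replicate 2, and in WT at days 1, 14 and 28 it was 0 of 6, 0 of 8 and 0 of 9 members.

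**Figure D4:**
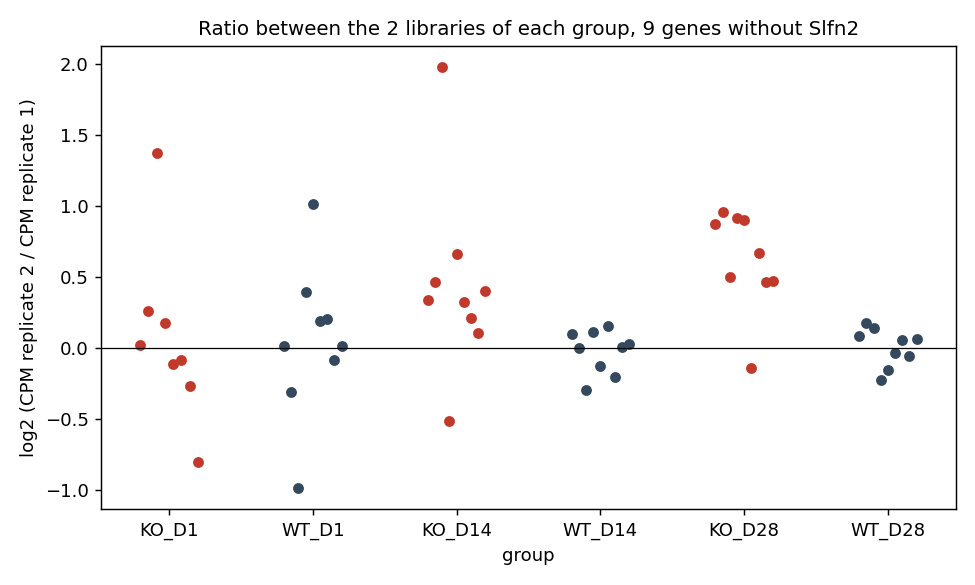
Log2 ratio of replicate 2 to replicate 1 (y axis) in each group (x axis) for 9 genes, 1 point per gene, with Slfn2 left out and Gbp9 in KO at day 1 not drawn because replicate 2 was at 0. In KO at day 28, 8 of 9 points lie above 0, with the gene below it being Igtp, and in WT at day 28 the ratios lie between 0.856 and 1.13.

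The rest of the 3 families was described from a list of 28 further genes, of which 26 were in the table and 13 passed the filter. Counts of calls in this and the later lists stand beside 19.5% of all genes higher and 20.8% lower in KO at day 1. The shares were 23.8% and 25.9% at day 14 and 19.8% and 21.2% at day 28, and no excess over them was tested. Of the 7 tested immunity-related and very large GTPases, 1 was higher and 3 lower in KO at day 1, 1 higher and 4 lower at day 14, and 6 lower at day 28, with a median log2 fold change of -1.37, -1.33 and -3.10. The effectors Ifi47, also called Irgd, and Tgtp2 were lower in KO at each day, with the day 14 calls lost under DESeq2 (adjusted p = 0.107 and 0.0683). Those day 14 calls were also lost without any 1 of the 4 libraries of that day for Ifi47, and without KO or WT replicate 1 for Tgtp2. For Ifi47 the day 1 call was lost without KO replicate 1 of that day (adjusted p = 0.0569), and the day 28 call without KO replicate 1 (0.0767) or WT replicate 1 (0.0733) of that day. Ifi47 had 0.256 and 0.441 CPM in KO against 1.30 and 1.44 CPM in WT at day 1, and fell by 1.92 ± 0.51 (adjusted p = 0.00449), 0.97 ± 0.37 (0.0351) and 1.25 ± 0.34 (0.00556) at days 1, 14 and 28 on the log2 scale. Tgtp2 had 0.260 and 0.407 CPM in KO against 3.63 and 2.31 CPM in WT at day 28, where it fell by 3.10 ± 0.47 (adjusted p = 1.94e-05). The gene 9930111J21Rik2 fell by 2.33 ± 0.54, 2.02 ± 0.42 and 4.08 ± 0.45 (adjusted p = 0.00146, 0.000461 and 3.1e-07). Its namesake 9930111J21Rik1 had 0 and 1 counts in KO against 20 and 17 counts in WT at day 28. It was called lower at days 14 and 28, with the day 14 call lost under DESeq2 (adjusted p = 0.0647) and without KO or WT replicate 1 of that day. Iigp1, the effector that loads on Toxoplasma vacuoles, was lower in KO at day 28 (-2.18 ± 0.46, adjusted p = 0.00068) and stood at 0.27 ± 0.65 at day 1 and -0.44 ± 0.50 at day 14. Gm4070, a very large GTPase gene, had 0 counts in all 6 KO libraries and 12 and 12 counts in WT at day 28, which is at least 7.95-fold lower in KO at a floor of 3 counts over the group. Irgq, a divergent member of the family, was higher in KO at days 1 and 14 (0.32 ± 0.12, adjusted p = 0.0425, and 0.53 ± 0.13, adjusted p = 0.0024) and stood at 0.03 ± 0.13 at day 28. The day 1 call of Irgq was lost under DESeq2 (adjusted p = 0.119) and without any 1 of the 4 libraries of that day. Gm12185, Tgtp1, Gm4951, F830016B08Rik, Gm5431, Irgc1 and Gvin1 were too low to test.

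Of the other guanylate-binding genes, Gbp4, Gbp8 and Gbp10 were tested and 0 were called between the lines at any day by edgeR's quasi-likelihood test or DESeq2, and 0 had an unadjusted p below 0.05. Without KO replicate 2 of day 28, Gbp4 was called lower at that day (-1.29, adjusted p = 0.0228). Like Gbp6 and Gbp9 they lie on chromosome 5 and were near 0 at day 1. Gbp4 had 2.16 and 4.82 CPM in KO and 4.75 and 5.94 CPM in WT at day 28. Gbp8 had 1.90 and 2.85 CPM in KO and 2.65 and 3.06 CPM in WT at that day. All 3 were called higher at day 28 than at day 1 in both lines, and Gbp8, with 0 counts at day 1, was at least 20.5-fold higher in KO and at least 28.9-fold higher in WT. Gbp5, the guanylate-binding gene of the chromosome 3 cluster known for the inflammasome, was too low to test, with 3 and 1 counts in KO and 6 and 5 counts in WT at day 28, as was Gbp2b.

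Among the other Schlafens, Slfn3 was higher in KO at each day (0.43 ± 0.12, 0.59 ± 0.12 and 0.39 ± 0.12, adjusted p = 0.00621, 0.00052 and 0.012). It had 22.5 and 19.2 CPM in KO against 14.9 and 16.0 CPM in WT at day 1, and that call was lost without KO replicate 1 or WT replicate 1 of the day. The day 28 call was likewise lost without KO replicate 1 (adjusted p = 0.0635) or WT replicate 1 (0.0504) of day 28. Slfn5 was not called at any day. The other Schlafens in the table, Slfn1, Slfn4, Slfn14 and Slfnl1, were too low to test. Over the 13 tested genes of the 3 families, 3 were higher and 3 lower at day 1, 2 higher and 4 lower at day 14, and 1 higher and 7 lower at day 28.

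Interferons themselves were scarcely seen. The 12 ligand genes in the table had 22 counts over all 12 libraries, of which 12 were Ifnk, and Ifnb1 and Ifng had 0, which allows up to 0.195 to 0.347 CPM per library at a floor of 3 counts. Of 9 receptor and Janus kinase genes, 1 was higher and 4 lower in KO at day 1, 1 higher and 4 lower at day 14, and 1 higher and 5 lower at day 28. The interferon gamma receptor chain gene Ifngr1 was the higher one at each day. At day 1 it had 81.0 and 82.0 CPM in KO against 60.5 and 69.0 CPM in WT, and that call was lost under 1 of 17 alternatives. At days 14 and 28 its log2 fold change was 0.65 ± 0.08 (adjusted p = 1.24e-06) and 0.64 ± 0.08 (1.29e-06). Ifnar2, a type I interferon receptor chain gene, was lower at day 1 (-0.64 ± 0.12, adjusted p = 0.000249). Jak2, the kinase bound to the interferon gamma receptor, was lower at days 1 and 14 (-0.82 ± 0.09, adjusted p = 3.03e-07, and -0.70 ± 0.09, adjusted p = 2.08e-06). Ifnlr1, a receptor chain for interferon lambda, was lower at day 28 (-1.67 ± 0.31, adjusted p = 0.000202).

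Of 9 tested transcription factors of the pathway, 2 were higher and 2 lower in KO at day 1, beside 19.5% and 20.8% of all genes. At day 14, 1 was higher and 3 lower, beside 23.8% and 25.9%, and at day 28, 1 was higher and 5 lower, beside 19.8% and 21.2%. The median log2 fold changes of the 9 were 0.11, -0.10 and -0.27. Stat2 had 43 and 43.4 CPM in KO against 29.8 and 28.2 CPM in WT at day 1, and 41.1 and 46.5 CPM in KO against 76.1 and 71 CPM in WT at day 28. It was higher in KO at day 1 (0.57 ± 0.09, adjusted p = 3.2e-05) and lower at days 14 and 28 (-0.22 ± 0.09, adjusted p = 0.0492, and -0.75 ± 0.08, adjusted p = 4.51e-07). The day 14 call was lost under 11 of 17 alternatives, with adjusted p of 0.0514 with median-ratio size factors, 0.0933 with no filter, 0.0565 with the replicate block and 0.118 under DESeq2. At day 1 Stat2 was higher in KO while Gbp7, Igtp, Irgm1 and Slfn8 were lower.

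Irf9, the DNA-binding partner of Stat2, was lower in KO at each day (-0.30 ± 0.11, -1.69 ± 0.11 and -1.17 ± 0.09, adjusted p = 0.0425, 8.29e-11 and 2.48e-09), and the day 1 call was lost under 7 of 17 alternatives, DESeq2 among them (adjusted p = 0.0917). Irf7, the factor that amplifies type I interferon, had 4.06 and 3.09 CPM in KO against 16.8 and 16.2 CPM in WT at day 14. Its log2 fold change was 0.21 ± 0.23 at day 1 (adjusted p = 0.523), -2.21 ± 0.23 at day 14 (7.29e-08) and -1.82 ± 0.18 at day 28 (5.39e-08). Irf1, which interferon gamma induces, stood at -0.15 ± 0.08, -0.08 ± 0.08 and 0.20 ± 0.08 (adjusted p = 0.149, 0.453 and 0.0447), and its day 28 call was lost under 12 of 17 alternatives, among them DESeq2 (adjusted p = 0.118) and library totals only (0.285).

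Of 9 negative regulators, 1 was higher and 3 lower at day 1, 1 higher and 2 lower at day 14, and 3 higher and 2 lower at day 28. Usp18, the protease that silences the type I receptor and is itself induced by interferon, was lower at days 14 and 28 (-2.38 ± 0.28, adjusted p = 4.16e-07, and -1.93 ± 0.20, adjusted p = 1.82e-07). Of 24 tested antiviral interferon-stimulated genes, 1 was higher and 11 lower at day 1, 21 were lower at day 14 and all 24 were lower at day 28, with medians of -0.41, -1.69 and -1.74. Ifi44 had 8 and 31 counts in KO against 214 and 177 counts in WT at day 14 (-3.45 ± 0.31, adjusted p = 1.25e-08). Ifit1 had 7 and 17 counts in KO against 167 and 98 counts in WT at day 28 (-3.43 ± 0.32, adjusted p = 2.67e-08).

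Of 15 genes of ATG8 conjugation and ubiquitin marking, which steer the GTPases to vacuoles, 2 were higher and 3 lower in KO at day 1, 1 higher and 7 lower at day 14, and 2 higher and 5 lower at day 28, with medians of 0.04, -0.22 and -0.05. Rnf213, a ubiquitin ligase for bacterial lipid, fell by 1.02 ± 0.10 at day 14 (adjusted p = 1.67e-08), and Map1lc3a, an ATG8 protein gene, fell by 0.94 ± 0.12 (1.78e-06). Of 7 tested genes around caspase-11, 1 was higher and 2 lower at day 1, 2 higher and 2 lower at day 14, and 1 higher and 4 lower at day 28. Casp4, which encodes caspase-11 in the mouse, was lower at each day (-1.87 ± 0.36, -1.78 ± 0.27 and -1.26 ± 0.19, adjusted p = 0.000265, 1.4e-05 and 1.72e-05). Aim2, a DNA sensor gene that interferon can induce, was higher at each day (1.31 ± 0.13, 1.51 ± 0.14 and 1.26 ± 0.13, adjusted p = 6.6e-08, 1.93e-08 and 8.13e-08).

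Across the 12 libraries, the members were compared with the mean of the others on standardized log2 CPM. Slfn8 followed it most closely, with a Pearson r of 0.986, and Gbp9 was at 0.761 and Slfn2 at -0.185. The 45 pairs of members had a median r of 0.855, from -0.30 to 0.967. The genes outside the list with the highest r to the member mean were Dtx3l (0.990), Cep19 (0.989), Herc6 (0.987), Tpp1 (0.982), Oasl2 (0.982), Ifih1 (0.982), Rtp4 (0.979) and Parp14 (0.978). Of 11807 genes that averaged 1 or more in log2 CPM, 155 had an r above 0.9, or 1.31%. Irf9 had an r of 0.936, Irf1 of 0.659 and Piezo1 of 0.453. These values describe 12 libraries that share line, day and replicate structure, and they carry no p.

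**Figure D5:**
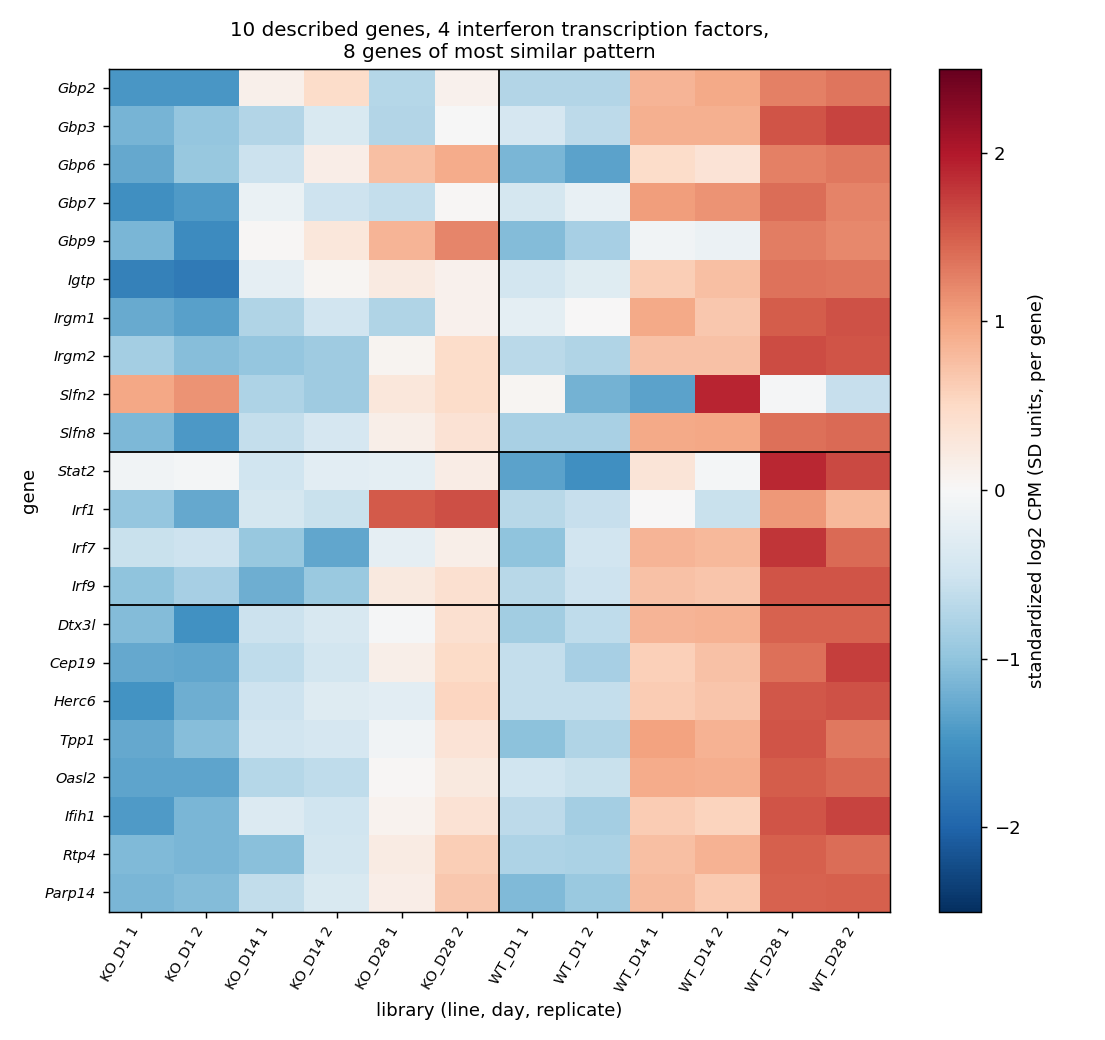
Log2 CPM of the 10 genes, 4 interferon transcription factors and the 8 genes of most similar pattern (rows), standardized per gene, in the 12 libraries (columns, KO left of WT). Red is high and blue is low in SD units. WT at day 28 is the reddest group for 9 of the 10 genes, and in Slfn2 it is replicate 2 of WT at day 14.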

How the data were processed

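Poly(A) RNA from 12 libraries, 2 for each of 6 groups, was analysed. The deposited table held read counts per gene, which the authors made with STAR on mm10 and featureCounts of Subread, per the submitters' processing notes, which also name edgeR; their versions, the annotation, the strand setting and the treatment of reads with several alignments were not stated there. All 12 library columns were used, and 3 transgene rows were left out. The 10 genes, the lists of related genes and the tests were chosen with earlier results of these data known.

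Genes were kept by filterByExpr (minimum count 10, minimum total 15), which left 13772. Counts were scaled by TMM and fitted with edgeR 4.0.16 in R 4.3.3, with 1 coefficient per group over all 12 libraries. Each of 11 comparisons used the two-sided quasi-likelihood F test with Benjamini-Hochberg adjustment over all genes tested, and a gene was called below 0.05. Every adjusted p and SE is from this fit unless DESeq2 1.42.0 is named. The fit was tested on simulated data. CPM use TMM-scaled totals, and RPKM divide them by the exon length in GENCODE M21 on GRCm38/mm10. A fold against a group at 0 uses 3 counts in place of 0, and ratios with 1 to 3 counts have exact binomial 95% intervals. Intervals and floors cover counting error only. Alternatives were median-ratio size factors, library totals only, no filter, a replicate block, DESeq2 and each library left out.

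The text names the 10 genes, all other family genes in the table, Piezo1, and Stat2, Irf1, Irf7 and Irf9. From each other list and day it draws on up to 3 called genes with the largest change and no overlap of libraries, and it names the 8 genes of most similar pattern over the libraries; 1 further gene of the rule is not reported here. Lists cover other guanylate-binding, immunity-related GTPase and Schlafen genes, interferon ligands, receptors with kinases, transcription factors, negative regulators, ATG8 and ubiquitin partners, caspase-11 genes, antiviral genes, antigen presentation genes, and leukocyte, endothelial and bone cell markers.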

Additional observations from a re-analysis of the deposited data

Results flagged for a closer look

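The KO change minus the WT change over time, on the log2 scale, passed the threshold in the edgeR fit for the genes below. The members among them were chosen with such differences in view, so for them the values are a description and not a test. From day 1 to day 14 the difference was -1.18 ± 0.39 (SE) for Gbp3, -1.71 ± 0.27 for Irgm2 and -2.0 ± 0.53 for Slfn8, and that of Gbp3 stayed called in 5 of 12 fits with 1 library left out. Among genes outside the list it was -0.71 ± 0.11 for Slfn9 (adjusted p = 6.17e-05), -0.80 ± 0.13 for Stat2 (0.000155), -2.42 ± 0.33 for Irf7 (2.28e-05) and -1.39 ± 0.16 for Irf9 (2.87e-06).

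From day 1 to day 28 it was -1.79 ± 0.38 for Gbp3 and -1.27 ± 0.24 for Irgm2. Outside the list it was -2.45 ± 0.83 for Iigp1 (adjusted p = 0.0403), -1.23 ± 0.11 for Slfn9 (7.25e-08), -1.32 ± 0.12 for Stat2 (2.08e-07), -2.02 ± 0.29 for Irf7 (4.12e-05) and -0.87 ± 0.15 for Irf9 (0.000187). For Irf1 the difference ran the other way, at 0.35 ± 0.11 (0.0319). Slfn9 and Stat2 were above WT in KO at day 1 and below it at day 28. No cause was tested for these differences.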

How the results depend on the processing

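Of 374 counts of calls recomputed over 17 alternatives (22 counts), 346 stayed within 1.5 times their value as reported. DESeq2 called fewer of the 13 other family genes: 3 in place of 6 for KO against WT at day 14, 3 in place of 5 from day 14 to day 28 in KO, 1 in place of 5 from day 1 to day 14 in WT, 3 in place of 5 from day 14 to day 28 in WT, and 1 in place of 2 in the difference of change to day 28; the cause was not tested. Leaving out 1 library at a time gave 3 to 6 members called at day 1, 6 to 8 at day 14 and 8 to 9 at day 28, and 1 to 4 and 2 to 5 in the differences of change to days 14 and 28. For the other family genes it gave 3 to 6, 3 to 6 and 5 to 9 between the lines at days 1, 14 and 28, 2 to 4, 1 to 5 and 3 to 6 in KO over time (to day 14, from day 14 and over the whole course), 1 to 5 in WT up to day 14, and 1 to 2 in the difference of change to day 28. A group left with 1 library is assumed to vary like the others. Same-numbered replicates deviated together, with an r above 0.1, in 1 of 15 pairs of groups (r from -0.040 to 0.112). That pair was KO and WT at day 28. A correlation over all genes with this cut cannot exclude that the numbers pair the samples, at day 28 above all. A replicate block called 5, 8 and 8 members at days 1, 14 and 28. Of 4125 values of single genes, 3925 kept their call, 156 lost and 44 gained one, and 0 turned sign while called. Depth limits Slfn2 at every day and Gbp6 and Gbp9 at day 1.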

Other observations

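Antigen presentation genes, which interferons also induce, did not share 1 direction. Of 12 tested, 3 were higher and 4 lower in KO at day 1, 2 higher and 2 lower at day 14, and 3 higher and 7 lower at day 28. The list also held the checkpoint ligand gene Cd274 and the chemokine gene Cxcl10, which do not present antigen. Both were among the 7 lower at day 28 (-2.12 ± 0.37, adjusted p = 9.38e-05, and -2.44 ± 0.80, adjusted p = 0.018 by edgeR). The Cxcl10 call was lost under 2 of 17 alternatives. Psmb8, an immunoproteasome subunit gene, had 31 and 36 counts in KO against 214 and 216 counts in WT at day 1 (log2 fold change -2.40 ± 0.18, adjusted p = 1.05e-09 by edgeR). Nlrc5, the activator of class I genes, had 80.0 and 77.0 CPM in KO against 27.8 and 27.5 CPM in WT at day 14 (1.5 ± 0.11, adjusted p = 4.6e-10), where Gbp7, Irgm2 and Slfn8 stood lower in KO.

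Of the 7 leukocyte markers tested, the macrophage receptor gene Csf1r was lower in KO at day 14 (-0.76 ± 0.31, adjusted p = 0.0484) and Fcer1g higher at day 28 (1.18 ± 0.39, adjusted p = 0.0182). The Csf1r call was lost under 13 of 17 alternatives, DESeq2 (adjusted p = 0.146), no filter (0.0584) and the replicate block (0.0587) among them. The Fcer1g call was lost under DESeq2 (adjusted p = 0.0909) and without KO replicate 2 (0.193) or either WT library (0.0643 and 0.0744) of day 28. Of 3 endothelial markers tested, Kdr was lower at days 14 and 28, with 6 and 6 counts in KO against 64 and 51 counts in WT at day 28 (-3.22 ± 0.39, adjusted p = 1.43e-06). Of 11 tested osteoblast and osteocyte markers, 3, 4 and 1 were higher and 2, 4 and 4 lower in KO at days 1, 14 and 28. The largest changes at day 1 were in Ibsp (-1.16 ± 0.13), Phex (1.005 ± 0.20) and Alpl (-0.60 ± 0.14). At day 14 they were in Col1a1 (1.31 ± 0.16), Sp7 (1.06 ± 0.16) and Dmp1 (-0.92 ± 0.23). At day 28 they were in Pdpn (-1.31 ± 0.14), Alpl (-1.23 ± 0.15) and Dmp1 (-0.99 ± 0.23, adjusted p = 0.00176 by edgeR). The day 28 call of Dmp1 was lost without WT replicate 1 of that day. These are called genes without overlap of libraries. The part of these differences in the levels of the 10 genes was not tested.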
